A study of Homo sapiens with 9 samples.

Results

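Transcripts of 10 genes of the cellular oxygen response were followed in 9 libraries of polyadenylated RNA from 143B, a human cell line long established from an osteosarcoma. The genes, and the gene lists used below, were chosen by symbol with earlier results of these data known. Their counts beside those of all genes are therefore descriptions. All 10 genes were found among the 36810 genes of the deposited table. They comprise the transcription factor subunits HIF1A and EPAS1, the oxygen sensors EGLN1 and EGLN3, and 6 hypoxia targets that lie outside glycolysis, NDRG1, BNIP3, BNIP3L, CA9, CA12 and ANKRD37. Cells exposed to 0.5 µM XD23, a compound the labels name by code alone, for 24 h or for 48 h were compared with control cells of the 0 h time point, with 3 libraries per group. All groups were grown in RPMI-1640 medium with fetal bovine serum and carry no genetic change named in the labels. A vehicle is not named, nor are untreated cells of the later time points, so the compound and time in culture cannot be told apart in any comparison. Whether the replicates were grown as separate cultures is not stated, so p-values measure only the spread between these libraries. Oxygen was not named as a variable.

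Cells sense oxygen through the stability of HIF alpha subunits. When oxygen is present, prolyl hydroxylases of the EGLN family modify the alpha subunit, the VHL ubiquitin ligase recognises it, and the proteasome destroys it. When oxygen is scarce the subunit persists, pairs with ARNT and binds short DNA elements near its target genes. This control acts on the protein, which was not measured here, and HIF1A transcript does not report it. Several of the targets also answer to other signals, among them nutrient and growth factor signalling.

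The values are FPKM, in which each gene's fragments are divided by its length and by the size of the library. The libraries held 18341542 to 22901830 fragments, worked out from the FPKM themselves, and 12910 to 13345 genes per library reached 1 FPKM. Vimentin (VIM, 304.07 FPKM in control), SPARC (41.87) and the osteoblast regulator RUNX2 (6.34) were present, while the bone collagen genes COL1A1 (0.495) and COL1A2 (0.0221) and the phosphatase gene ALPL (0.0786) were low. Summed mesenchymal and osteosarcoma markers (10 genes) stood at 772 to 804 FPKM in control, 825 to 1060 at 24 h and 940 to 1030 at 48 h, most of it VIM and S100A6. Of the 7 tested at 48 h against control, S100A6 rose (409.13 to 550.33 FPKM, limma, adjusted p = 0.0159) and 3 fell. By limma SPARC fell to 28.15 FPKM (adjusted p = 4.94e-05), RUNX2 to 4.19 (0.000189) and CDH2 from 11.34 to 10.19 (0.0403). Of all tested genes, 13.3% were called higher and 15.2% lower in that comparison. Replicate 3 of the 24 h group stood apart, with Pearson r of 0.9808 and 0.9832 to the others of its group on log2(FPKM + 1), where the other pairs within a group had 0.9881 to 0.9896. Summed markers of blood cells (6 genes, none at 0 in every library) stood between 0.0769 and 0.215 FPKM in all libraries. Summed endothelial markers (6 genes, none at 0 in every library) stood at 0.468 to 0.556 FPKM in control, 0.332 to 0.412 at 24 h and 0.758 to 0.858 at 48 h, mostly PECAM1. Summed epithelial markers (6 genes, mostly EPCAM) stood at 4.36 to 5.02, 4.27 to 5.38 and 3.39 to 3.82 FPKM. EPCAM, the only epithelial marker tested, fell from 3.88 FPKM in control to 2.75 at 48 h (limma, adjusted p = 0.0186). The part of these markers in the results below was not tested.

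Short DNA sequences upstream of these genes are shown first, because HIF is known to bind a 5-base core, ACGTG or GCGTG. RefSeq upstream sequence (build GRCh38.p14) was at hand for 8 of the 10 genes, all but NDRG1 and BNIP3L. Within 250 bases before the RefSeq start, 7 of the 8 genes held at least 1 core on either strand. This counts genes, while 43.2% of all 35116 upstream windows of that length held a core. For HIF1A the core lay before the first of its RefSeq starts, and the window of its other start held none. The windows with a core in the 7 genes are rich in G and C, from 60.4% to 81.6%, where the median of all windows was 58%. ANKRD37 and BNIP3 carried more than 1 core, and these stretches are printed with CA9, CA12 and EGLN1. Capitals mark the cores on either strand, CACGT and CACGC being the reverse complements.
BNIP3 (chr10:131982014-131982173, minus strand, outside GENCODE exons): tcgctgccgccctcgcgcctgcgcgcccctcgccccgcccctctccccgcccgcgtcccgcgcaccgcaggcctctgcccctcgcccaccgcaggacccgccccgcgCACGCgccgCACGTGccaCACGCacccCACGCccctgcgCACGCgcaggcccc
ANKRD37 (chr4:185396676-185396705, plus strand, within GENCODE exons): ctcCACGTGccagtgtttgtgtACGTGcgg
CA9 (chr9:35673897-35673926, plus strand, within GENCODE exons): ctcgtttccaatgCACGTacagcccgtaca
CA12 (chr15:63382064-63382093, minus strand, within GENCODE exons): ggcggatctcaccCACGCctgccagcagct
EGLN1 (chr1:231422288-231422317, minus strand, within GENCODE exons): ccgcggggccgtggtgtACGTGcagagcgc

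The BNIP3 stretch held 2 copies of ACGTG, 1 on each strand, which overlap as the palindrome CACGTG. It also held 4 copies of the second core, all on the strand opposite to the gene. ANKRD37 held 3 copies of the first core, 2 of them in another such palindrome. This palindrome is also the E-box bound by many basic helix-loop-helix factors, and it lay in 6.34% of all upstream windows. CA9 and EGLN1 held a single copy of the first core within 20 bases of the start, and CA12, HIF1A and EPAS1 a single copy of a core farther upstream. The first core was present in 18.5% and the second in 32.2% of all windows. EGLN3 held neither in this window. A match describes the letters alone, and binding was not measured.

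**Figure D1:**
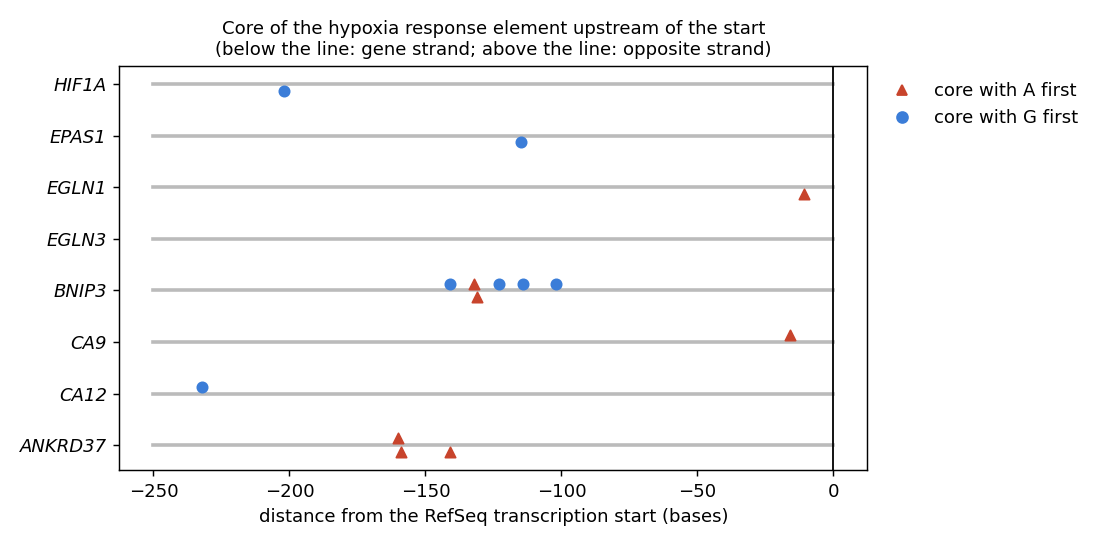
Positions of the 5-base core of the hypoxia response element in the 250 bases before the RefSeq start of 8 genes. The x axis is the distance from the start in bases, triangles are ACGTG and circles GCGTG, drawn below each line for the gene's strand and above it for the opposite strand. BNIP3 shows a cluster of 6 cores, ANKRD37 shows 3 and EGLN3 none.

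Genes were tested with limma on log2(FPKM + 1) when they reached 1 FPKM in at least 3 libraries, which kept 13657 genes and 8 of these 10. CA9 and EGLN3 lay below that limit. ANKRD37 reached it only through its 48 h libraries, so its call was favoured by the filter, and it is given beside a fit with no filter. A gene is called here at a Benjamini-Hochberg adjusted p under 0.05 over all tested genes. Errors beside FPKM are SD over 3 libraries, and errors beside log2 fold changes are standard errors of the model. The pseudocount of 1 understates the change of genes with low values.

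After 48 h with XD23, 5 of the 8 tested genes had risen against control and 1 had fallen. All 5 that rose, NDRG1, BNIP3, ANKRD37, CA12 and BNIP3L, are hypoxia targets, and the one that fell, EPAS1, encodes a HIF alpha subunit. Among all genes tested 13.3% were called higher and 15.2% lower. HIF1A and EGLN1 were not called. After 24 h none of the 8 was called by limma in either direction, with 0% of all genes called higher and 0.00732% lower. The gene behind that last share, RNU6-548P, a small RNA pseudogene, was named after its value was seen. Between 24 h and 48 h, 6 of the 8 rose and 0 fell by limma, against 16% higher and 16.3% lower among all genes. At an unadjusted p under 0.05 the counts in either direction were 6 of 8 at 48 h against control, 0 at 24 h against control and 6 at 48 h against 24 h, where all genes gave 40.1%, 7.43% and 43.2%. By library values alone, 5 of the 8 lay wholly above control at 48 h and 1 wholly below, against 22.7% and 27.7% of all genes. At 24 h, 0 lay wholly above control and 3 wholly below, against 4.81% and 8.38%. At 48 h, 6 lay wholly above 24 h and 0 wholly below, against 23.1% of all genes in each direction. ANKRD37 is in every one of these counts of genes higher at 48 h, and it passed the filter only through its 48 h libraries. The filter therefore favoured those counts. The 48 h against control and 48 h against 24 h comparisons share the 48 h libraries, and both comparisons with control share the control libraries, so their values are given side by side and do not support each other.

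**Figure D2:**
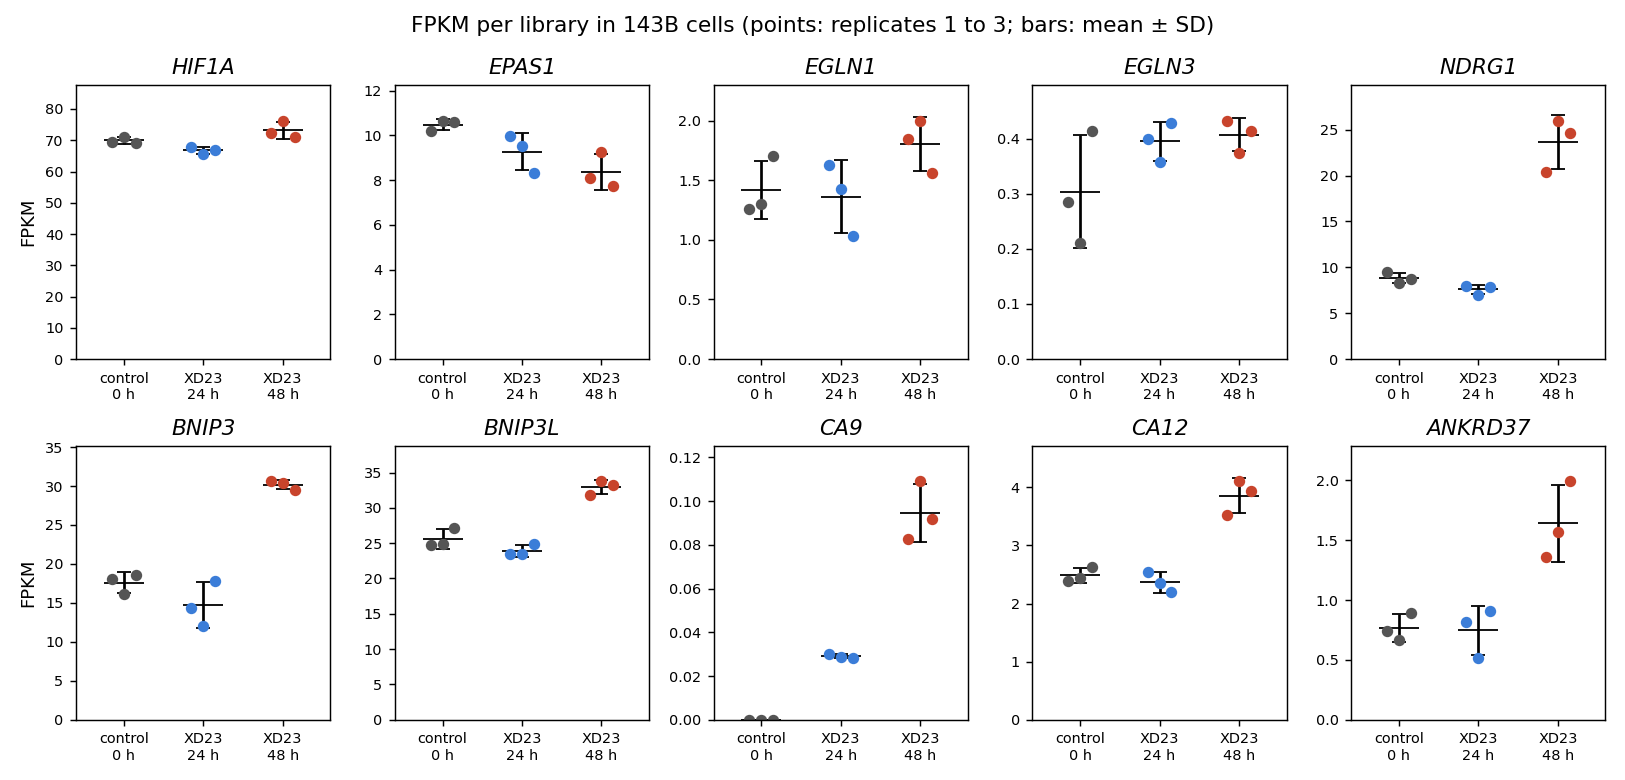
FPKM of the 10 genes in every library (y axis, starting at 0, with its own scale in each panel), by group on the x axis. Points are libraries, and bars are the mean with SD of 3. NDRG1, BNIP3, BNIP3L, CA12 and ANKRD37 lie higher in all 48 h libraries than in any other library, and EPAS1 at 48 h lies below all controls.

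The HIF alpha subunits stood at different levels, and at 48 h against control EPAS1 was called lower while HIF1A was not called. HIF1A (ENSG00000100644, GRCh38 chromosome 14, 61695513 to 61748259, plus strand), the widely expressed alpha subunit, was the most abundant of the 10 transcripts in every group. Its libraries gave 69.57, 71.18 and 69.16 FPKM in control, 67.84, 65.74 and 66.73 at 24 h, and 72.25, 76.26 and 71.15 at 48 h. All 24 h libraries lay below all controls, and the 48 h libraries lay above all 24 h libraries but overlapped the controls. Against control the log2 fold change at 24 h was -0.07 ± 0.04 (limma, adjusted p = 0.723). The 48 h value was 0.06 ± 0.04 (adjusted p = 0.22), with a 95% interval of -0.02 to 0.15. From 24 h to 48 h HIF1A rose by 0.13 ± 0.04 (adjusted p = 0.0232), a 1.1-fold higher mean. That call ended without 24 h replicate 2 (adjusted p = 0.0735) or 48 h replicate 2 (0.0823), and in a fit to those groups alone (0.0631). An exon of HIF1A-AS1, on the opposite strand, shares 117 bases with HIF1A, and counting by strand is not stated.

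EPAS1 (ENSG00000116016, chromosome 2, 46293667 to 46386703, plus strand) encodes the HIF alpha subunit first described in endothelium. Its values were 10.19, 10.66 and 10.59 FPKM in control, 9.96, 9.52 and 8.34 at 24 h, and 8.10, 9.28 and 7.75 at 48 h. Both treated groups lay wholly below control, and they overlapped each other. EPAS1 fell by 0.29 ± 0.07 on the log2 scale at 48 h (limma, adjusted p = 0.0189), to 0.8 times the control mean. The call ended without control replicate 2 (adjusted p = 0.0584) or 3 (0.0581), without 48 h replicate 1 (0.0616) or 3 (0.0647), and with no filter (0.0566). At 24 h the difference was -0.16 ± 0.07 (adjusted p = 0.678), or -0.10 without 24 h replicate 3, the library with the lowest value. Between 24 h and 48 h it was -0.13 ± 0.07 (adjusted p = 0.214, 95% interval -0.30 to 0.04).

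Within each library HIF1A was 6.53 to 6.83 times EPAS1 per length in control, 6.81 to 8.01 times at 24 h and 8.22 to 9.18 times at 48 h. The mean ratio was 6.68 ± 0.148 in control and 8.77 ± 0.5 at 48 h (SD, n = 3; two-sided exact permutation p = 0.1, the lowest value possible with 3 libraries a group). At 24 h it was 7.24 ± 0.665 (exact permutation p = 0.2). The 48 h ratios lay above those of all other libraries.

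**Figure D3:**
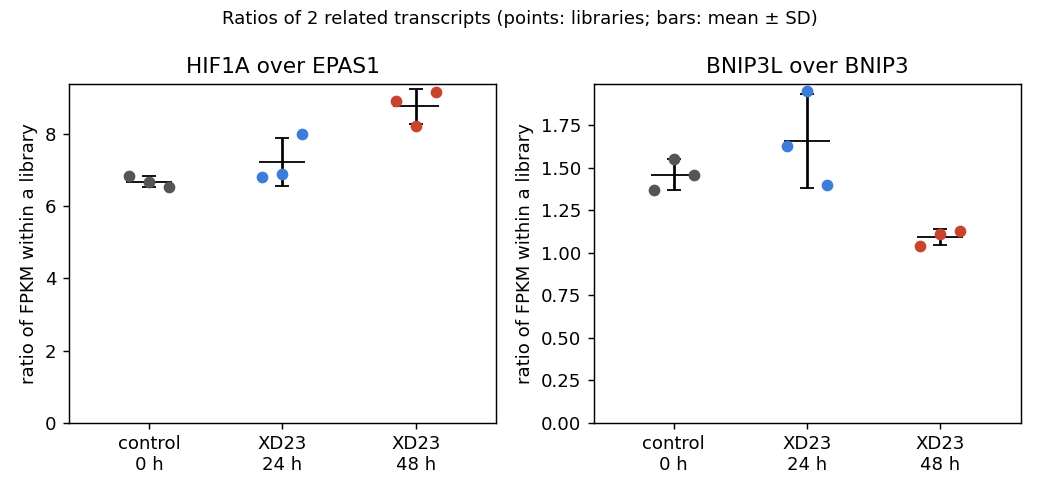
Ratios of FPKM within each library for HIF1A over EPAS1 (left) and BNIP3L over BNIP3 (right), on y axes that start at 0, by group. Points are libraries and bars the mean with SD of 3. At 48 h the first ratio (8.22 to 9.18) lies above and the second (1.04 to 1.13) below all other libraries.

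The oxygen sensors EGLN1 and EGLN3 were scarce. EGLN1 was not called, and EGLN3 lay below the filter. EGLN1 (ENSG00000135766, chromosome 1, 231363751 to 231425044, minus strand) encodes the main prolyl hydroxylase of HIF alpha in most cells. Its control libraries gave 1.26, 1.3 and 1.7 FPKM, those at 24 h 1.63, 1.43 and 1.03, and those at 48 h 1.85, 2 and 1.56. The groups overlapped in each comparison. The log2 fold change was 0.21 ± 0.12 at 48 h against control (limma, adjusted p = 0.223, 95% interval -0.06 to 0.48) and 0.25 ± 0.12 against 24 h (adjusted p = 0.142, interval -0.02 to 0.52). A rise of up to 0.48 on this scale therefore lies within the interval. These values rest on 122 to 246 fragments per library.

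EGLN3 (ENSG00000129521, chromosome 14, 33924231 to 34462774, minus strand), a related hydroxylase known as a strongly hypoxia-induced gene in many cell types, was not tested. The control libraries gave 0.286, 0.211 and 0.415 FPKM, the 24 h libraries 0.4, 0.358 and 0.428, and the 48 h libraries 0.433, 0.374 and 0.415. Each value rests on 31 to 72 fragments. The third control lay as high as the treated libraries, so the groups overlapped. With no filter the log2 fold change at 48 h was 0.11 ± 0.07 (limma, adjusted p = 0.499). Per length, EGLN1 was 4.9 ± 1.12 times EGLN3 in control, 3.5 ± 0.933 times at 24 h and 4.45 ± 0.813 times at 48 h (SD, n = 3). Against control the two-sided exact permutation p was 0.1 at 24 h, the smallest possible, and 0.6 at 48 h. The 24 h ratios lay wholly below control, narrowly so, with a highest of 4.08 against a lowest of 4.1.

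NDRG1 had the largest change of the 8 tested genes. NDRG1 (ENSG00000104419, chromosome 8, minus strand) encodes a cytoplasmic protein of differentiation and stress that is widely used as a hypoxia marker. Its libraries gave 9.45, 8.32 and 8.69 FPKM in control, 7.91, 7.03 and 7.89 at 24 h, and 20.42, 25.99 and 24.60 at 48 h. Every 48 h library lay above every other library, and every 24 h library lay below every control. The mean at 48 h was 2.68 times control and 3.11 times 24 h. The log2 fold change was 1.32 ± 0.09 against control (limma, adjusted p = 4.66e-05) and 1.51 ± 0.09 against 24 h (adjusted p = 2.04e-05). At 24 h it was -0.19 ± 0.09 (adjusted p = 0.682). In all, 3 of the 8 tested genes, HIF1A, EPAS1 and NDRG1, had 24 h libraries wholly below control, against 8.38% of all tested genes.

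BNIP3 and BNIP3L encode related proteins of the outer mitochondrial membrane that bind LC3-family proteins and serve as receptors for the removal of mitochondria by autophagy. BNIP3 (ENSG00000176171, chromosome 10, 131966455 to 131982013, minus strand) stood at 18.11, 16.10 and 18.62 FPKM in control, 14.36, 12.03 and 17.81 at 24 h, and 30.59, 30.43 and 29.50 at 48 h. The 48 h libraries lay close together and above all others, while 24 h replicate 3 lay among the controls. Against control BNIP3 rose by 0.75 ± 0.12 (limma, adjusted p = 0.00196), to a mean 1.71 times as high. The rise over 24 h was 1.00 ± 0.12 (adjusted p = 0.00039), to a mean 2.05 times as high. The 24 h difference was -0.26 ± 0.12 (adjusted p = 0.673), or -0.39 without 24 h replicate 3 (adjusted p = 0.292). BNIP3 has 39 pseudogenes by name in GENCODE, so its reads may be split between copies and its values are uncertain to that extent.

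BNIP3L (ENSG00000104765, chromosome 8, plus strand), also called NIX, is known for clearing mitochondria from maturing red blood cells, and its fold change was smaller than that of BNIP3. It stood at 24.73, 24.91 and 27.16 FPKM in control, 23.44, 23.42 and 24.93 at 24 h, and 31.77, 33.74 and 33.29 at 48 h, so that only the 48 h libraries stood apart. The rise of BNIP3L was 0.35 ± 0.05 over control (limma, adjusted p = 0.00104) and 0.45 ± 0.05 over the 24 h libraries (adjusted p = 0.000281). PNMA2, on the opposite strand, shares 330 exonic bases with BNIP3L and kept means of 14.9, 14.5 and 14.6 FPKM over the 3 groups in order of time. Within libraries BNIP3L was 1.46 ± 0.0908 times BNIP3 in control, 1.66 ± 0.274 times at 24 h and 1.09 ± 0.0471 times at 48 h (SD, n = 3). The 48 h ratios lay below all others (two-sided exact permutation p = 0.1 against either group, the smallest possible).

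CA12 and CA9, carbonic anhydrases of the cell surface, were both low. They hydrate carbon dioxide outside the cell and are known for adjusting the acidity around tumours. CA12 (ENSG00000074410, chromosome 15, 63321378 to 63382161, minus strand) stood at 2.38, 2.44 and 2.63 FPKM in control, 2.54, 2.36 and 2.19 at 24 h, and 3.53, 4.10 and 3.94 at 48 h. The 48 h libraries lay above all others, and the control and 24 h libraries overlapped. CA12 rose by 0.48 ± 0.07 over control (limma, adjusted p = 0.00108) and by 0.53 ± 0.07 over the 24 h libraries (adjusted p = 0.000554). Each value rests on 336 to 657 fragments.

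CA9 (ENSG00000107159, chromosome 9, 35673856 to 35681159, plus strand), a classical HIF target and a common tissue marker of tumour hypoxia, was close to absent. It had 0 fragments in each control library, 1 in each 24 h library and 3, 4 and 3 in the 48 h libraries. The 10 fragments at 48 h among 65768059, taken as exact, were 2.98-fold above the upper limit of control. That limit is 3 fragments over the group, which 0 of 58762095 allows. Counting error of the 10 fragments is not included, so the fold could be lower. With 3 fragments in all at 24 h, no fold is given for that group. With no filter CA9 was called at 48 h (0.13 ± 0.02, limma, adjusted p = 0.00262), a call that rests on these few fragments. ARHGEF39 shares 643 exonic bases with CA9 on the opposite strand and stood at 2.27 FPKM in control and 1.66 at 48 h, so the fragments cannot be placed on either gene without strand. In FPKM, CA9 at 48 h reached 0.0827, 0.109 and 0.0919.

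ANKRD37 (ENSG00000186352, chromosome 4, 185396021 to 185400628, plus strand), a small ankyrin repeat protein and a known direct HIF target, was the other gene with low counts. It stood at 0.739, 0.666 and 0.895 FPKM in control, 0.814, 0.513 and 0.911 at 24 h, and 1.36, 1.57 and 1.99 at 48 h. Each value rests on 25 to 91 fragments. All 48 h libraries lay above all others, with a mean 2.14 times control. The log2 fold change, which the pseudocount reduces, was 0.57 ± 0.13 against control (limma, adjusted p = 0.0104) and 0.60 ± 0.13 against 24 h (adjusted p = 0.00761). With no filter ANKRD37 was still called against control (adjusted p = 0.0322) and against 24 h (adjusted p = 0.0246), and with a pseudocount of 0.1 the changes were 1.00 and 1.06. UFSP2 shares 909 exonic bases with it on the opposite strand and had means of 9.05, 9.03 and 7.44 FPKM in the groups in order of time. Counting by strand is not stated, and the part of UFSP2 in the ANKRD37 values was not tested.

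**Figure D4:**
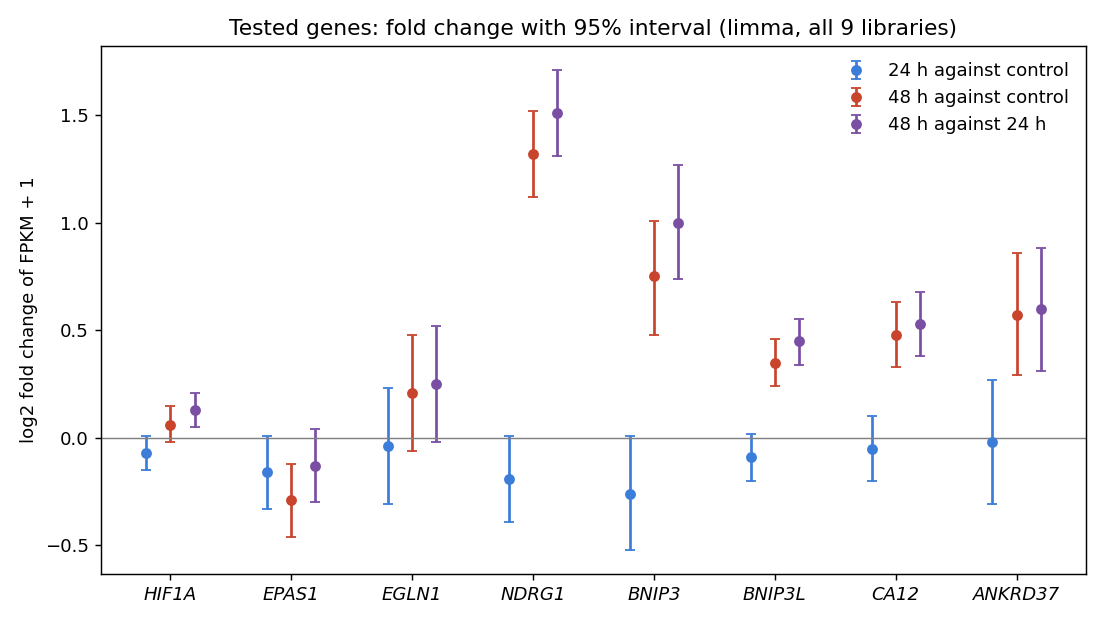
Log2 fold changes of FPKM + 1 for the 8 tested genes (y axis) in the 3 comparisons, as points with 95% intervals from limma. The intervals of NDRG1, BNIP3, BNIP3L, CA12 and ANKRD37 lie above 0 in both comparisons with 48 h, that of EPAS1 lies below 0 at 48 h against control, and all 8 intervals at 24 h include 0.

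In control the mean FPKM ran from HIF1A (69.97) through BNIP3L (25.6), BNIP3 (17.61), EPAS1 (10.48), NDRG1 (8.82), CA12 (2.48), EGLN1 (1.42), ANKRD37 (0.767) and EGLN3 (0.304) to CA9 (0). No neighbours in this order overlapped between control libraries. At 48 h NDRG1 (23.67) stood above EPAS1 (8.38), while EGLN1 (1.8) and ANKRD37 (1.64) overlapped.

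All 8 tested genes had negative fold changes at 24 h, from -0.26 to -0.02, where the median of all tested genes was -0.02. The share of all genes with a negative value was not counted. The 8 values come from the same control and 24 h libraries, so their signs are not separate observations. EGLN1 and ANKRD37 turned positive with quantile normalization (0.00 and 0.04) and without control replicate 3 (0.04 and 0.03). EGLN1 also did so without 24 h replicate 3 (0.07) and ANKRD37 without 24 h replicate 2 (0.08). None of these values was called.

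Of 18 listed genes that make, modify or assist HIF, 16 were tested, and at 48 h 3 had risen over control and 0 had fallen by limma, where 13.3% of all genes were called higher and 15.2% lower. Their median log2 fold change was 0.11 against -0.02 for all genes. Against 24 h, 6 rose and 1 fell, where all genes gave 16% and 16.3%. The counts at 48 h against control depended on the setting, with 5 higher after median-of-ratios scaling and 6 higher and 1 lower without 24 h replicate 3. SIAH2, a ubiquitin ligase that targets the EGLN hydroxylases, rose from 13.86 ± 0.867 to 18.68 ± 0.293 FPKM (0.41 ± 0.05, adjusted p = 0.000543). CITED2, which competes with HIF alpha for the coactivators EP300 and CREBBP, rose from 9.84 ± 0.52 to 12.37 ± 0.124 FPKM (0.30 ± 0.07). VHL, the substrate receptor of the ligase that destroys HIF alpha, rose by 0.20 ± 0.05 (adjusted p = 0.0131), a call that ended without control replicate 3 (adjusted p = 0.0514). The partner subunit ARNT stood at 8.82 FPKM in control and 9.48 at 48 h and was not called (0.09). HIF3A was almost absent, at 0.00584 FPKM in the controls, and the remaining hydroxylase EGLN2 stood at 0.534. Genes overlapping EGLN2 were not looked up, so reads lost to them could make its value too low.

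Other non-glycolytic hypoxia targets were mostly higher at 48 h. Of 34 listed, 32 were tested, 25 rose, 1 fell and 6 were not called, with a median of 0.36, against 13.3% higher and 15.2% lower among all genes. The highest were ANGPTL4 (2.80 ± 0.16), the vasodilator peptide gene ADM (1.41 ± 0.10) and BHLHE40, a repressor of the clock family (41.63 ± 1.17 to 101.52 ± 3.12 FPKM, 1.27 ± 0.05). At 24 h none of the 32 was called and the median was -0.08. Of 21 glycolytic targets 15 rose at 48 h and 0 fell, beside the same 13.3% and 15.2% of all genes, and their median was 0.35. The highest were the glucose transporter SLC2A3 (1.17 ± 0.05), the regulatory kinase PFKFB3 (0.99 ± 0.05) and the enolase ENO2 (0.96 ± 0.10). Of the most highly expressed enzymes, GAPDH (0.01), ENO1 (-0.00), TPI1 (0.07) and PGAM1 (-0.16) were not called. PGK1 (0.50), LDHA (0.42) and PKM (0.11), also highly expressed, were called higher. These enzymes were named after their values were seen.

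**Figure D5:**
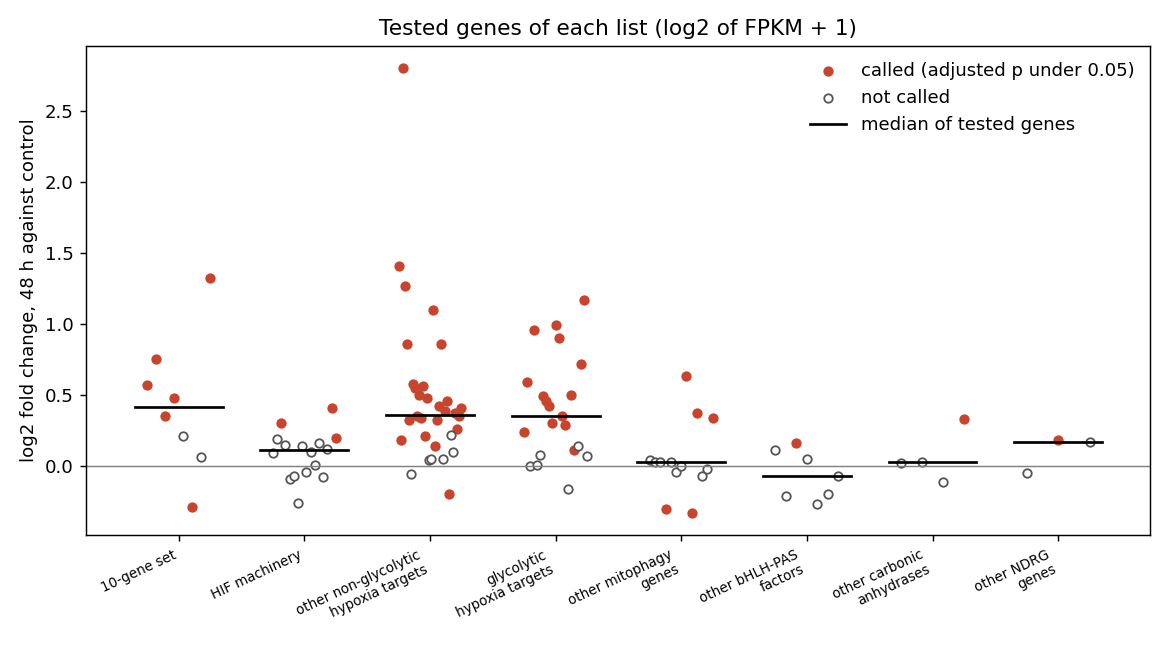
Log2 fold change at 48 h against control (y axis) of the tested genes of 8 lists (x axis). Filled points were called, open points were not, and horizontal bars are medians. The medians of the other non-glycolytic (0.36) and the glycolytic targets (0.35) stand above those of the HIF machinery (0.11) and the other mitophagy genes (0.03).

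Of 14 other mitophagy receptors and adaptors 13 were tested, 3 rose and 2 fell at 48 h, with a median of 0.03. These counts are near the 13.3% higher and 15.2% lower of all genes. The adaptor OPTN rose from 6 ± 0.151 to 9.83 ± 0.815 FPKM (0.63 ± 0.06, limma, adjusted p = 0.00025), and the kinase PINK1 by 0.37 ± 0.09. PINK1 was no longer called when control replicate 2 or 48 h replicate 3 was left out (adjusted p up to 0.0611). The initiating kinase ULK1 rose by 0.34 ± 0.10 (adjusted p = 0.0361) but was not called in 9 of 17 alternatives, which include the replicate block and leaving out any control or 48 h library or 24 h replicate 2 (adjusted p up to 0.118). PHB2 fell by 0.33 ± 0.04 and FUNDC1, another receptor of the outer membrane, by 0.30 ± 0.06, both named after their values were seen. Of 13 other carbonic anhydrases 4 were tested, and CA8, which passed the filter only at 48 h, rose by 0.33 ± 0.08, while CA2 stood at 6.11 FPKM in control and was not called. NDRG3 rose by 0.18 ± 0.04 and NDRG2 (-0.05) and NDRG4 (0.17, adjusted p = 0.0586) were not called. Among 7 tested bHLH-PAS factors, the family of HIF alpha, BMAL2 rose by 0.16 ± 0.05 (adjusted p = 0.0401). Higher calls were thus 1 of 4 carbonic anhydrases, 1 of 3 NDRG genes and 1 of 7 bHLH-PAS factors, with 0 lower in each. All tested genes gave 13.3% higher and 15.2% lower, and lists this short cannot be told apart from those shares. BMAL2 was not called in 10 of 18 alternatives, which include leaving out any control or 48 h library or 24 h replicate 1 or 2 (adjusted p up to 0.132).

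The genes whose pattern over the 9 libraries was most like that of NDRG1 were DEPP1, SLC2A3, ANGPTL4, PPP1R3B and SCARF1, with Pearson r of 0.997, 0.996, 0.995, 0.995 and 0.995 on log2(FPKM + 1). Since the 48 h libraries stand apart for NDRG1, this likeness mainly restates that group difference. For HIF1A they included RBPJ, ACVR2B, PSTPIP2 and RGMB-AS1, with r from 0.962 to 0.955. The means of RBPJ were 11.15, 10.80 and 12.03 FPKM in order of time, and those of RGMB-AS1 were 2.91, 2.3 and 3.95. These values are descriptions over libraries that share their groups, and carry no test.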

How the data were processed

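Polyadenylated RNA was sequenced as paired ends from 9 libraries of 143B cells, per the labels' protocols. The submitters' processing notes name HISAT2, featureCounts, Subread and DESeq2, and hg38 as the build. Versions, settings, any use of strand and the annotation are not given in the sources named. The authors deposited 1 table of FPKM, per the file headers 1 column for each library. From it, symbols and GENCODE 29 positions and exon lengths (GRCh38) were joined, and genes with at least 1 FPKM in at least 3 libraries (13657 of 36810) were fitted as log2(FPKM + 1) with limma 3.58.1 in R 4.3.3, using 1 mean per group, eBayes with a trend, 6 residual degrees of freedom, two-sided tests and Benjamini-Hochberg adjustment. The script was tested on simulated data. Fragments were recovered as FPKM times exon length times a total for the library, and came out whole, within 0.001, for 58.8% of genes with a GENCODE length. HIF1A and BNIP3 are among them, and for the other 8 genes the smallest length giving whole fragments was used. Fragment counts cover counting error only. RefSeq supplied upstream sequences.

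The 10 genes and all lists were chosen with earlier results of these data known. The lists cover HIF machinery, other non-glycolytic and glycolytic hypoxia targets, other mitophagy genes, carbonic anhydrases, NDRG and bHLH-PAS genes, and markers of mesenchymal, epithelial, blood and endothelial cells. From each list but the markers, up to 3 called genes with the largest absolute fold change at 48 h were named, and the 5 genes most like NDRG1 and HIF1A. Alternatives were quantile normalization, median-of-ratios scaling, a pseudocount of 0.1 or 0.5, dropping the filter or raising it to 5 FPKM, a block for the replicate number, a fit to only the groups compared, eBayes without a trend, a fold threshold of 0.5 on the log2 scale, and leaving out each library. Results for 2 further genes are not reported here.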

Additional observations from a re-analysis of the deposited data

Results flagged for a closer look

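For 6 of the 8 tested genes the effect at 48 h differed from that at 24 h by the direct test between these groups (limma over 13657 genes). Of all tested genes, 16% were called higher and 16.3% lower in that comparison. The log2 differences, 48 h less 24 h, were 1.51 for NDRG1, 1.00 for BNIP3, 0.60 for ANKRD37, 0.53 for CA12, 0.45 for BNIP3L and 0.13 for HIF1A. All 3 libraries at 48 h lay above all 3 at 24 h for each of the 6, as they did for 23.1% of all tested genes. HIF1A differed by far the least, and ANKRD37 passed the filter only through its 48 h libraries.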

How the results depend on the processing

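NDRG1 and BNIP3 kept their calls at 48 h, against control and against 24 h, in all 19 alternatives, with log2 fold changes of 1.26 to 1.42 and 0.69 to 0.79 against control. ANKRD37 was called in 15 alternatives and could not be tested in the other 4, the filter at 5 FPKM and leaving out any 48 h library, so its call was not checked there. With an added fold threshold of 0.5, the genes called higher and lower numbered 301 and 257 at 48 h against control and 418 and 308 against 24 h. Of the 10 genes, 3 were then called higher and 0 lower against control. A filter at 5 FPKM also left 3 higher, since CA12 and ANKRD37 were not tested, and no filter left 0 lower. Leaving out 1 library gave 1183 to 2365 genes higher and 1368 to 2771 lower at 48 h against control, the fewest without 48 h replicate 2 (1183 and 1368) and 1386 lower without control replicate 1, and the most without 24 h replicate 3, a library outside that comparison that shares its estimate of spread. Of the 10 genes, 4 to 5 were then higher and 0 to 1 lower. Against 24 h it gave 1461 to 2217 higher, 1485 to 2383 lower and 4 to 6 of the 10 genes higher. At 24 h against control, 2 genes were higher with no filter, 2 higher and 2 lower with quantile normalization, and 0 lower with no trend, in a fit to the groups compared and with the replicate block. Leaving out 1 library there gave 0 to 1 higher and 0 to 1 lower. EGLN1 at 24 h turned to 0.00 with quantile normalization, 0.04 without control replicate 3 and 0.07 without 24 h replicate 3 (-0.12 to 0.07 over the libraries left out), and ANKRD37 to 0.04 with quantile normalization, 0.03 without control replicate 3 and 0.08 without 24 h replicate 2 (-0.09 to 0.08). The cause was not tested. Same-numbered libraries correlated at -0.057 to 0.239 in their deviations (2 of 9 pairs over 0.1), so the numbers were not taken to pair them, and 1 of the 9 libraries correlated best with its own number in both other groups. With the replicate block 1726 genes were higher and 2007 lower at 48 h against control, and 5 and 1 of the 10 genes. Of 798 counts over gene lists, 700 stayed within 1.5 times. Depth limits CA9, EGLN3 and ANKRD37, with under 100 fragments per library each.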

Other observations

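Antisense transcripts at 2 of these genes lie outside the comparisons above and are given as values alone. HIF1A-AS2, whose exons share no base with HIF1A, had means of 1.56, 0.938 and 1.51 FPKM in the groups in order of time. HIF1A-AS1 stood at 0.288, 0.354 and 0.113 FPKM in the same order. At BNIP3, AL162274.2 stood at 1.76, 3.07 and 3.67 FPKM and AL162274.1 at 0.813, 0.471 and 1.55 FPKM, neither sharing an exonic base with BNIP3. Means over 3 libraries are given, and since counting by strand is not stated, reads of unspliced BNIP3 or HIF1A RNA within their bounds cannot be told apart from them.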
